A study of Mus musculus with 8 samples.

Results

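A set of 10 genes of innate immune sensing was followed in the corpus callosum, the white matter tract between the cerebral hemispheres. They were chosen by name and make up 10 of the 25239 gene symbols measured. By role they are the receptors *Tlr2*, *Tlr4*, and *Tlr7*, the coreceptor *Cd14*, the feedback inhibitor *Nfkbia*, the inflammasome genes *Nlrp3*, *Casp1*, and *Casp4*, and the cytokines *Il1b* and *Tnf*. RNA was sequenced in 8 libraries from male C57BL/6 mice aged 8 to 12 weeks. Of these, 4 carry the label WT (wild type) and 4 the label TRPA1-KO (Trpa1 -/-, a knockout line backcrossed to C57BL/6J). TRPA1 is the cation channel whose role the study asked about. Each label has 1 sham library from day 14 and 1 library each from days 7, 10, and 14 after bilateral common carotid artery stenosis (BCAS), in which microcoils around both common carotid arteries lower cerebral blood flow. Sham mice had the same anesthesia and exposure of the arteries but no coil. Days 7 and 10 have no sham library, so for these days the coil and the time since surgery cannot be told apart. Each day of a label is 1 library, and the 3 BCAS days of a label served as its replicates. Their spread mixes day and mouse, and p-values measure only the spread between these libraries.

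Toll-like receptors recognize microbial products and molecules released from damaged cells. TLR2 and TLR4 act at the cell surface, with CD14 handing ligands to both, and TLR7 reads single-stranded RNA in endosomes. Their adaptors switch on the transcription factor NF-kB, which drives *Il1b*, *Tnf*, *Nlrp3*, and its own inhibitor IkBa, the product of *Nfkbia*. The sensor NLRP3 then assembles with caspase-1 (*Casp1*) into an inflammasome that matures interleukin-1b, and caspase-4 (*Casp4*, also called caspase-11 in mice) responds to lipopolysaccharide inside the cell. In brain tissue microglia carry most of these sensors.

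Upstream sequence is shown first, for members known as NF-kB targets, with the neighbor pair *Casp4* and *Casp1* side by side. RefSeq promoter windows (GRCm38.p6) were matched for *Tlr2*, *Nfkbia*, *Nlrp3*, *Casp1*, *Casp4*, *Il1b*, and *Tnf*, and the 250 bases before each start site were searched on both strands. The NF-kB consensus of 10 bases occurs in 7.25% of the 32851 windows of this length. The stretches of 4 members follow 5′ to 3′ on the strand of the gene, cut at the first base that GENCODE M21 places in an exon, with matches to that consensus in capitals. The *Tlr2* stretch is chr3:83841768-83841858 (minus strand, 91 bases), the *Casp4* stretch is chr9:5308599-5308827 (plus strand, 229 bases), the *Casp1* stretch is chr9:5298267-5298516 (plus strand, 250 bases), and the *Nfkbia* stretch is chr12:55492648-55492897 (minus strand, 250 bases).
Tlr2: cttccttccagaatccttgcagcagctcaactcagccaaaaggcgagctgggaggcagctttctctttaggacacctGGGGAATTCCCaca
Casp4: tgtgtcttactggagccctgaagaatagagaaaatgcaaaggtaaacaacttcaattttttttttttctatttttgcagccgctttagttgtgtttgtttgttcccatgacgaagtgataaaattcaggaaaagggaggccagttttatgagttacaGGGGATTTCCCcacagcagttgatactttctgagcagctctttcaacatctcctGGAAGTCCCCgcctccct
Casp1: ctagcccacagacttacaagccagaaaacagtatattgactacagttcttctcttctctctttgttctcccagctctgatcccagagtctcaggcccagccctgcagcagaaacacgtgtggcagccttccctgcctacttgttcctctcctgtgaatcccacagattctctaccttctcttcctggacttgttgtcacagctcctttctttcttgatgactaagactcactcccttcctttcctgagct
Nfkbia: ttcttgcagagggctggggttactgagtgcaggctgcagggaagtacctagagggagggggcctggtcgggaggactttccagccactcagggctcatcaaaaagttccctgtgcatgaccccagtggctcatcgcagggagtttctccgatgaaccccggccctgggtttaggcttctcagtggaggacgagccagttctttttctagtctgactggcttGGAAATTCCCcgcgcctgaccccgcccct

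In *Tlr2* the capitals hold 2 overlapping matches, GGGGAATTCC and GGGAATTCCC, from -173 to -163, counted from the start site. *Casp4* has the same arrangement with GGGGATTTCC and GGGATTTCCC from -93 to -83, and a further match, GGAAGTCCCC, from -39 to -30. *Nfkbia* has 1 match, GGAAATTCCC, from -29 to -20. One of the 2 *Nlrp3* windows has a match (GGGAACCCCC), and the windows of *Casp1*, *Il1b*, and *Tnf* have none. The letters TATAAA, which occur in 12.4% of windows, stand from -31 to -26 in *Il1b* and from -29 to -24 in *Tnf*. The core GAGGAA of the myeloid factor PU.1, present in 23.3% of windows, was found in the windows of *Casp1*, *Nlrp3*, and *Tnf*. These matches describe letters only.

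*Casp1* and *Casp4* are neighbors on chromosome 9 (GRCm38, plus strand, 5298517 to 5307265 and 5308828 to 5336783), with 1563 bases between them. The other members lie apart: *Tlr2* on chromosome 3 (83836272 to 83841767), *Tlr4* on 4 (66827584 to 66930284), *Tlr7* on X (167304929 to 167330558), *Cd14* on 18 (36725067 to 36726798), *Il1b* on 2 (129364570 to 129371139), *Nlrp3* on 11 (59541568 to 59566956), *Nfkbia* on 12 (55489410 to 55492647), and *Tnf* on 17 (35199381 to 35202007). The reads of *Il1b* cannot be told apart from those of its antisense partner *Il1bos*, because a strand setting of the counting is not given. Among other genes named below, the spans of *Cd180*, *Irak4*, and *Myd88* also overlap those of other genes, and shared reads were not examined.

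Values are CPM, reads scaled to a common library size, and whole reads could be recovered from them, between 7896071 and 12952093 per library. The floor of 3 reads equals 0.235 to 0.378 CPM, and all intervals cover counting error only. The gene targeted in the knockout did not follow the labels. *Trpa1* had 1 read in the WT-labelled sham library and 0 reads in each BCAS library labelled WT, against 10 reads in the sham library labelled TRPA1-KO and 11, 3, and 7 reads in its BCAS libraries of days 7, 10, and 14. An exchange of labels and reads from exons that a knockout allele keeps cannot be told apart in values per gene, which do not show the exons. Libraries are therefore named by their labels, and every direction below is one between labels. The tissue carried high oligodendrocyte markers (12077 to 16194 CPM summed over 6 genes), and neuron markers were also present (5286 to 6964 CPM summed over 6 genes).

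A pair of libraries stood apart in microglia and astrocyte markers, the BCAS libraries labelled WT of days 7 and 10. The summed level of 8 microglia markers was 979 and 580 CPM there, against 326 to 458 in the other 6 libraries, and all 8 of 8 markers had their highest values in these 2 libraries. The 5 astrocyte markers summed to 2486 and 2025 CPM there and to 915 to 1346 elsewhere. *Gfap* alone contributed 1415 and 1060 CPM there and 157 to 427 elsewhere, and the other markers differed by smaller ratios. Of the 5, 4 had their 2 highest values in these libraries. The exception was *Slc1a3*, at 501 CPM on day 10 against 579 in the day 14 BCAS library labelled TRPA1-KO. The 8 monocyte and neutrophil markers summed to 68.5 and 17.1 CPM in these libraries and to 5.16 to 14.7 elsewhere, with *Lyz2* contributing 59.3 CPM on day 7. Of the 8, 5 had their 2 highest values in these libraries. *Mrc1* was at 2.58 and 2.77 CPM there, against 4.99 in the day 14 BCAS library labelled TRPA1-KO. *S100a9* was at 0.126 CPM on day 10, against 0.156 in the WT-labelled sham library. The neutrophil marker *Ly6g* was at 0 in all libraries. The 5 lymphocyte markers summed to at most 1.64 CPM. In bulk tissue, more cells of a type and more RNA per cell cannot be told apart.

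Per kilobase of exon and averaged over the 8 libraries, *Nfkbia* was the most abundant member at 15.3 CPM per kb, followed by *Cd14* (1.88), *Tlr7* (1.31), *Tlr2* (0.907), *Casp1* (0.842), *Tlr4* (0.464), *Il1b* (0.287), *Nlrp3* (0.253), *Casp4* (0.106), and *Tnf* (0.0068). Only *Nfkbia* was separated from the next gene in this order; the ranges over libraries of all other neighbors overlapped.

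*Tlr2*, the receptor for bacterial lipopeptides, had the largest difference from the sham mean of the members in log2(CPM + 1), at 2.97. Its level was 0.391 CPM in the WT-labelled sham library and 0.575 in that labelled TRPA1-KO. After BCAS it was 10.6, 6.18, and 0.549 CPM on days 7, 10, and 14 in WT-labelled mice (119, 49, and 5 reads). The TRPA1-KO-labelled BCAS libraries had 0.445, 1.39, and 1.77 CPM on the same days (4, 13, and 17 reads). The 2 earlier WT-labelled libraries were thus high, at 21.9 and 12.8 times the mean of the sham libraries, both of day 14. The third, of the same day as sham, lay within the range of sham. The counting interval of the day 7 library lay wholly above those of all 7 other libraries.

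*Tlr4*, the lipopolysaccharide receptor, was at 2.19 CPM in the WT-labelled sham library and 2.88 in that labelled TRPA1-KO. It was at 6.14, 3.02, and 1.21 CPM on days 7, 10, and 14 of BCAS in WT-labelled mice, and at 0.891, 1.17, and 3.12 CPM in TRPA1-KO-labelled mice. The 2 series ran in opposite directions around the sham level, and the groups overlapped. Its coreceptor *Cd14* had the same order, with 7.91, 3.91, and 1.65 CPM on the 3 days in WT-labelled mice against 1.67, 2.14, and 4.06 in TRPA1-KO-labelled mice. The sham libraries had 1.49 and 3.16 CPM of *Cd14*, so those labelled TRPA1-KO on days 7 and 10 lay between them and that of day 14 above both.

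*Tlr7*, the endosomal receptor, was at 4.54 CPM in the WT-labelled sham library and 2.30 in that labelled TRPA1-KO. After BCAS it was at 13.4, 6.81, and 5.38 CPM in WT-labelled mice (151, 54, and 49 reads) and at 2.67, 2.56, and 5.10 CPM in TRPA1-KO-labelled mice (24, 24, and 49 reads). All 3 BCAS libraries labelled WT lay above all 3 labelled TRPA1-KO and above both sham libraries. The margin on day 14 was small, at 5.38 against 5.10 CPM.

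*Nfkbia*, the inhibitor induced by NF-kB itself, varied least. It was at 23.4 and 26.2 CPM in the sham libraries, at 27.4, 23.6, and 27.2 CPM after BCAS in WT-labelled mice, and at 25.4, 23.3, and 20.6 CPM in TRPA1-KO-labelled mice. Its reads (187 to 308 per library) were the most of any member, and its whole range over the 8 libraries, 20.6 to 27.4 CPM, had the lowest ratio of highest to lowest value.

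The inflammasome genes were low. *Nlrp3*, the sensor, had 0.782 and 0.767 CPM in the sham libraries, 1.96, 1.51, and 0.878 CPM after BCAS in WT-labelled mice, and 0.334, 0.427, and 1.56 CPM in TRPA1-KO-labelled mice (3 to 22 reads per library). *Casp1*, its protease, had 0.704 and 1.25 CPM in sham, 2.93, 1.76, and 0.878 CPM in WT-labelled mice, and 0.557, 0.747, and 1.25 CPM in TRPA1-KO-labelled mice. Both genes were highest on day 7 in WT-labelled mice and lowest on day 7 in TRPA1-KO-labelled mice. *Casp4* had 1 read in the WT-labelled sham library and 0 in that labelled TRPA1-KO, where the 95% counting interval reaches 0.354 CPM. It had 11, 9, and 1 reads after BCAS in WT-labelled mice (0.978, 1.13, and 0.110 CPM) and 2, 3, and 3 reads in TRPA1-KO-labelled mice (0.223, 0.320, and 0.312 CPM). Over pooled reads the BCAS libraries labelled WT had 17.2 times the sham level (95% exact interval 2.77 to 712), from 21 reads against 1. Those labelled TRPA1-KO had 6.64 times (0.890 to 295), from 8 reads against 1. These 2 intervals cover counting error of the pooled reads and not the spread between mice or days. The day 14 library labelled WT had 1 read, as did the WT-labelled sham library.

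The cytokines were near the detection limit. *Il1b* had 3 to 10 reads per library: 0.626 and 0.288 CPM in sham, 0.356, 1.26, and 0.439 CPM in WT-labelled mice, and 0.668, 0.320, and 0.416 CPM in TRPA1-KO-labelled mice. No library's interval lay wholly below that of the day 7 library labelled WT, in contrast to *Tlr2*, *Tlr4*, *Tlr7*, and *Cd14*, for which all 7 did. *Tnf* had 1 read, in the BCAS library labelled WT of day 7 (0.0889 CPM), and 0 reads in the other 7 libraries, so its level was not measurable at this depth and it was left out of the fits.

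**Figure D1:**
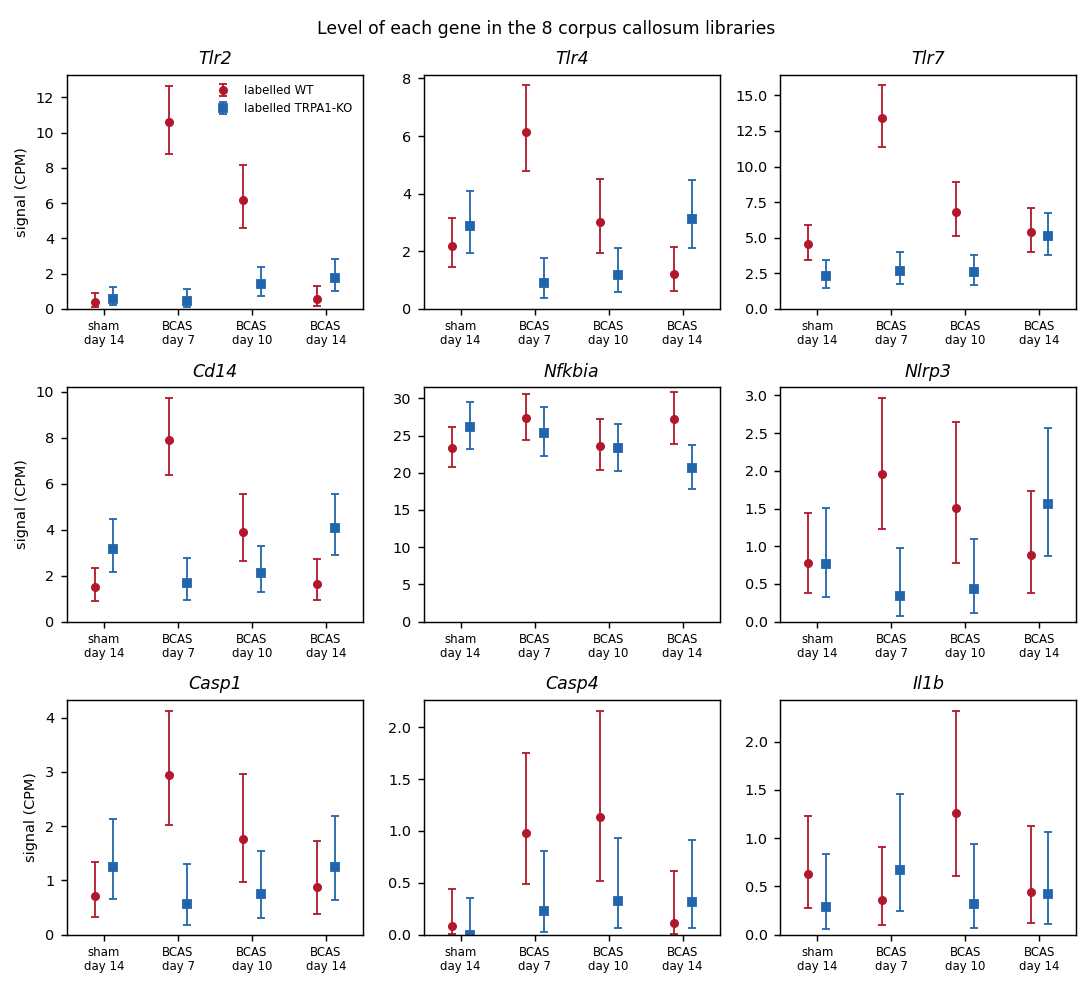
Signal in CPM (y axis, from 0) of 9 genes in each library (x axis, sham of day 14 and BCAS of days 7, 10, and 14), with circles for the label WT, squares for the label TRPA1-KO, and bars for 95% counting intervals. *Tlr2* reached 10.6 CPM on day 7 in WT-labelled mice against at most 1.77 CPM in TRPA1-KO-labelled mice, whereas *Nfkbia* stayed between 20.6 and 27.4 CPM.

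Set against the mean of both sham libraries, 8 of the 9 measurable members were higher in the BCAS library labelled WT of day 7 and 8 in that of day 10, with median differences of 1.01 and 0.61 in log2(CPM + 1). In the library labelled WT of day 14, 5 were higher and the median was 0.065. In TRPA1-KO-labelled mice, 3, 2, and 7 members were higher on days 7, 10, and 14, with medians of -0.22, -0.13, and 0.34. Of the 9, 7 had their highest level of all libraries on day 7 in WT-labelled mice and 2 (*Casp4* and *Il1b*) on day 10 with that label. Among all genes tested, 48.0% to 50.5% were above the sham mean in each BCAS library.

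**Figure D2:**
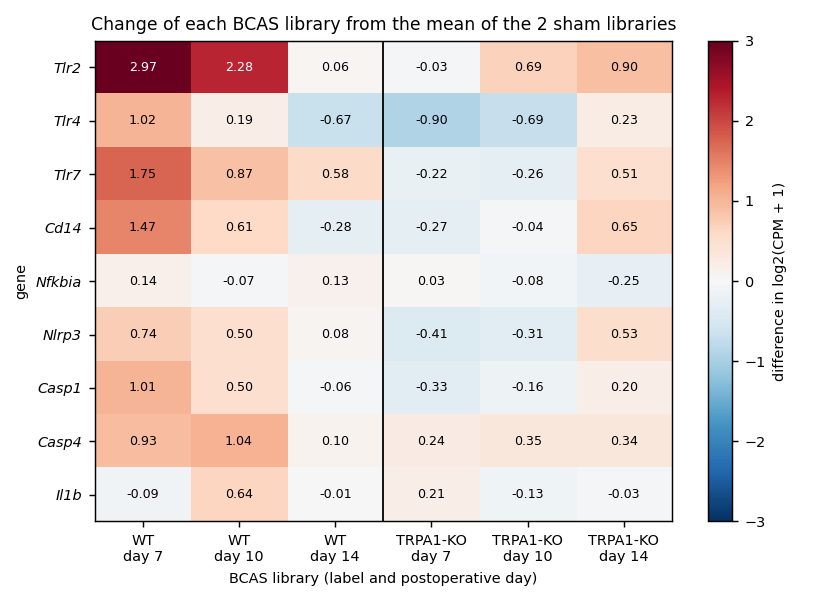
Difference of each BCAS library (columns, by label and day) from the mean of the 2 sham libraries for 9 genes (rows), in log2(CPM + 1), with red for higher and blue for lower. The 2 left columns hold the largest values, up to 2.97 for *Tlr2*, and *Tlr4* is at -0.90 and -0.69 on days 7 and 10 in TRPA1-KO-labelled mice.

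The first comparison asked whether the BCAS libraries of the 2 labels differed, with values tested as log2(CPM + 1) in limma over 18123 genes. All 9 members were on the side of higher levels in WT-labelled mice, with a median log2 fold change of 0.51 against 0.0010 over all genes. *Tlr7* was higher by 1.06 (SE 0.32), with 8.54 ± 4.30 CPM against 3.44 ± 1.43 (SD, 3 libraries each). It was the only member with a p under 0.05 (limma adjusted p = 0.98), and 2.4% of all genes were called higher at that threshold. Its groups did not overlap, as for 4.48% of all genes, and the exact two-sided permutation p was 0.10, the smallest that 3 against 3 can give. *Tlr2* differed by 1.25 (SE 0.61; 5.77 ± 5.03 against 1.20 ± 0.68 CPM), *Casp1* by 0.58 (SE 0.28), *Tlr4* by 0.63 (SE 0.42), *Nlrp3* by 0.51 (SE 0.28), *Cd14* by 0.48 (SE 0.41), *Casp4* by 0.38 (SE 0.25), *Nfkbia* by 0.17 (SE 0.12), and *Il1b* by 0.17 (SE 0.23), and none of these passed.

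The count in that comparison depended on single libraries. It was 4 without the day 14 library labelled TRPA1-KO, a run whose count over all genes is not given here. Without the day 14 library labelled WT it was 7, and *Tlr2* also had an adjusted p under 0.05 (limma log2 fold change 2.1). In the latter run, the genes with a p under 0.05 over all genes also rose, from 761 to 1846. Without the day 7 library labelled WT, *Tlr7* still passed at 0.71 and *Tlr2* was at 0.65. On recovered reads, edgeR and DESeq2 each gave 2 members (*Tlr2* and *Tlr7*) a p under 0.05 and none an adjusted p under 0.05. Over all genes, edgeR called 948 and DESeq2 595 at the unadjusted threshold. *Tlr7* had a limma p under 0.05 under every alternative run.

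**Figure D3:**
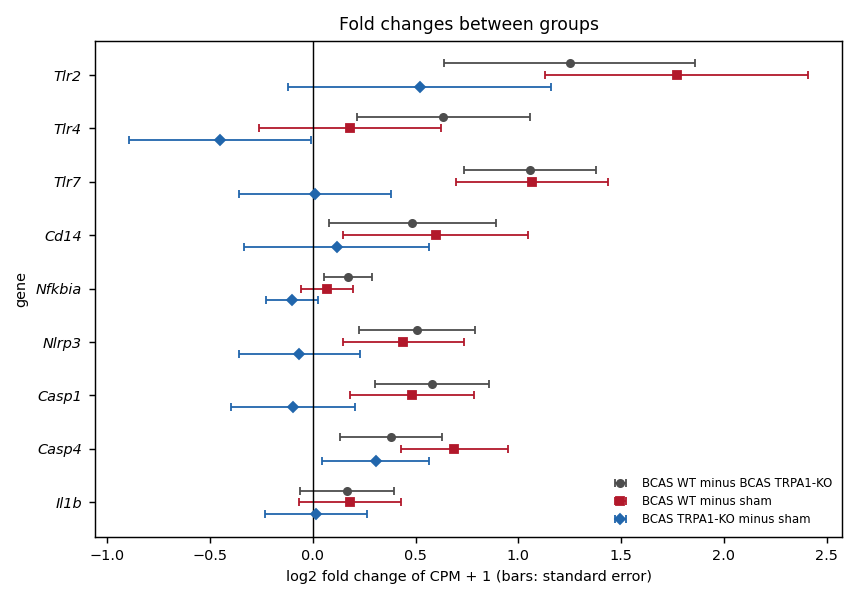
Log2 fold changes of CPM + 1 (x axis) of 9 genes (y axis) for BCAS WT minus BCAS TRPA1-KO, BCAS WT minus sham, and BCAS TRPA1-KO minus sham, with bars for standard errors. All 9 points of both comparisons that start from BCAS WT lie above 0, and those of BCAS TRPA1-KO minus sham lie between -0.45 and 0.52.

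Against sham, which has libraries of day 14 only, the BCAS libraries labelled WT had 9 of 9 members on the higher side, with a median of 0.48. Of these, 3 had a limma p under 0.05, while 2.44% of all genes were called higher. *Tlr2* was higher by 1.77 (SE 0.64, limma adjusted p = 0.88), *Tlr7* by 1.07 (SE 0.37, limma adjusted p = 0.88), and *Casp4* by 0.69 (SE 0.26, limma adjusted p = 0.89), the last of which depends on the pseudocount because sham had 1 read. None had an adjusted p under 0.05 in limma, edgeR, or DESeq2, and each tool gave 3 members an unadjusted p under 0.05. Over all genes, edgeR called 1229 and DESeq2 822 at the unadjusted threshold. The groups of *Tlr7*, *Nlrp3* (1.45 ± 0.54 against 0.775 ± 0.011 CPM), and *Casp4* did not overlap, as for 8.89% of all genes (exact permutation p = 0.20 each). These calls rested on few libraries: without the day 7 library labelled WT only *Tlr7* passed (log2 fold change 0.72) and *Tlr2* was at 1.17, and without the sham library labelled TRPA1-KO none passed (*Tlr2* 1.86, *Tlr7* 0.69). *Tlr7* alone also passed without the day 10 library labelled WT, and 5 passed without the day 14 library labelled WT, where *Tlr2* (2.62) also had an adjusted p under 0.05 in limma. In the latter run, the genes with a p under 0.05 over all genes also rose, from 988 to 2013.

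The BCAS libraries labelled TRPA1-KO, compared with the same sham libraries, had 5 members higher and 4 lower, with a median of 0.0097. None had a p under 0.05 in limma, edgeR, or DESeq2, where 1.07% of all genes were called higher and 1.67% lower in limma. *Tlr4* was at -0.45 (SE 0.44), *Tlr2* at 0.52 (SE 0.64), and *Tlr7* at 0.0097 (SE 0.37). *Casp4* was the only member whose groups did not overlap (0.285 ± 0.054 against 0.039 ± 0.055 CPM), as for 8.41% of all genes, at an exact permutation p of 0.10, the smallest that 3 against 2 can give.

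Whether the change from sham differed between labels was tested as an interaction, with 1 sham library per label. The term was positive for 8 of 9 members (median 0.49), and none had a limma p under 0.05, against 0.811% of all genes higher and 0.684% lower; edgeR and DESeq2 called none either. It was 1.43 (SE 1.22) for *Tlr2*, from changes of 1.86 in WT-labelled mice and 0.43 in TRPA1-KO-labelled mice, and 1.23 (SE 0.81) for *Cd14*, from 0.97 and -0.26. Without the day 14 library labelled WT, the term of *Tlr2* was 2.28.

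Over all 4 libraries per label, sham included, the 9 members were again on the higher side in WT-labelled mice, with a median of 0.34. *Tlr7* was higher by 0.98 (SE 0.29; limma adjusted p = 0.99), the only one of the 9 to pass, while 2.11% of all genes were called higher and 1.83% lower. The 4 libraries labelled WT had 7.54 ± 4.04 CPM of *Tlr7* and the 4 labelled TRPA1-KO 3.16 ± 1.30, with an exact permutation p of 0.057. Its groups overlapped only through the sham library labelled WT and the day 14 library labelled TRPA1-KO. Genes with an adjusted p under 0.05 made up 0.0166% of all genes between the BCAS groups, 0% for BCAS WT against sham, 0.00552% for BCAS TRPA1-KO against sham, 0.0497% over all libraries, and 0% for the interaction, and no member was among them.

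The next comparison was of the course over the days after BCAS. The slope over days 7, 10, and 14 was fitted for each label, and the difference was tested as an interaction of label and day in the 6 BCAS libraries. *Tlr2* had a slope of -0.42 per day (SE 0.057) in the WT-labelled libraries and of 0.13 (SE 0.057) in the TRPA1-KO-labelled ones, a difference of -0.55 per day (SE 0.081; limma adjusted p = 0.0059). *Tlr4* had slopes of -0.24 and 0.16 (difference -0.40, SE 0.071, limma adjusted p = 0.017), and *Cd14* of -0.25 and 0.13 (difference -0.38, SE 0.069, limma adjusted p = 0.019). These 3 passed the adjusted threshold, as did 2.09% of all genes.

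A further 3 members had an unadjusted p under 0.05 for this difference. *Tlr7* had slopes of -0.16 and 0.11 (difference -0.27, limma adjusted p = 0.079), *Nlrp3* of -0.094 and 0.14 (-0.23, limma adjusted p = 0.12), and *Casp1* of -0.15 and 0.077 (-0.23, limma adjusted p = 0.11). In all, 6 of 9 members passed in the negative direction, while 8.92% of all genes did so and 6.82% in the positive direction. *Casp4* (-0.14), *Il1b* (0.033), and *Nfkbia* (0.043) did not pass. With equal library medians the split over all genes turned from 1236 of 2853 in the positive direction to 2338 of 3510, and the 6 members still passed in the negative direction.

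The fit over days rests on 1 library per label and day, with 2 residual degrees of freedom for 6 libraries, so its error measures departure from a straight line and not the spread between mice of 1 day. Without the day 14 library labelled TRPA1-KO, 2 members (*Tlr2* and *Cd14*) kept a p under 0.05, while *Tlr4* (-0.31), *Tlr7* (-0.15), *Nlrp3* (-0.13), and *Casp1* (-0.21) did not pass. Without the day 7 library labelled WT, *Tlr7* (-0.18) did not pass, and without the day 14 library labelled WT, *Nlrp3* (-0.22) and *Casp1* (-0.25) did not, and *Il1b* passed in the positive direction (0.28). No member had an adjusted p under 0.05 without the day 7 or day 14 library of either label, or with no filter on low values, and *Tlr2* alone had one without the day 10 library labelled TRPA1-KO. On recovered reads, 6 members passed in edgeR and 4 in DESeq2, in which *Nlrp3* and *Casp1* did not. An adjusted p under 0.05 was found for 4 in edgeR (*Tlr2*, *Tlr4*, *Cd14*, and *Tlr7*) and 1 in DESeq2 (*Tlr2*). Over all genes, 680 had one in edgeR and 211 in DESeq2.

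**Figure D4:**
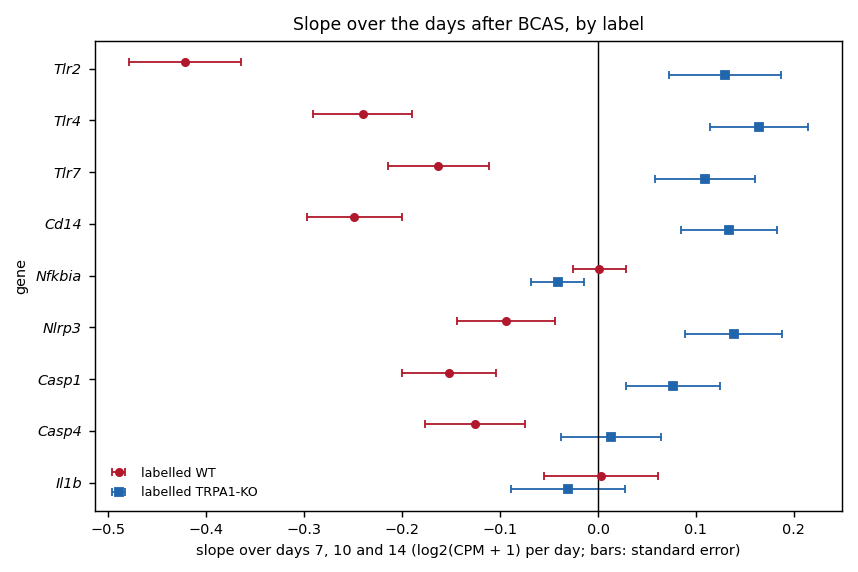
Slope over days 7, 10, and 14 after BCAS (x axis, log2(CPM + 1) per day) of 9 genes (y axis), with circles for the label WT, squares for the label TRPA1-KO, and bars for standard errors. *Tlr2* has slopes of -0.42 and 0.13, whereas the slopes of *Nfkbia* and *Il1b* lie within 0.05 of 0.

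The microglia markers were highest in the same 2 libraries as *Tlr2* and *Tlr7*, so each member was also expressed per 1000 CPM of the 8 summed markers, a ratio chosen after the values were seen and given without a test. *Tlr2* was at 10.8 and 10.7 per 1000 on days 7 and 10 in WT-labelled mice and at 1.12 to 4.12 in the other 6 libraries, so its excess in these 2 libraries was larger than that of the markers. *Casp4* was at 0.999 and 1.96 there and at 0 to 0.951 elsewhere, from few reads. *Tlr4* (6.27 and 5.22 against 2.74 to 8.07), *Cd14* (8.09 and 6.74 against 4.25 to 8.88), *Tlr7* (13.7 and 11.7 against 6.46 to 15.6), *Casp1* (3.0 and 3.04 against 1.71 to 3.5), and *Nlrp3* (2.0 and 2.61 against 1.03 to 3.41) lay within the range of the other 6 libraries. *Nfkbia* lay below it, at 28.0 and 40.7 against 45.0 to 78.9. Its own level varied little (20.6 to 27.4 CPM), so this ratio mainly follows the marker sum. *Il1b* was at 0.363 and 2.17 against 0.807 to 2.05, from 4 and 10 reads.

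By label, the ratio of *Tlr7* ranged from 11.7 to 15.6 per 1000 in the 4 libraries labelled WT and from 6.46 to 11.1 in the 4 labelled TRPA1-KO, sham included, so the nearest values of the labels were 11.7 and 11.1. For every other member the ranges of the labels overlapped. The share of all genes that separate the labels on this ratio was not computed. The part of microglia, astrocyte, or monocyte markers in the differences between labels was not tested.

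**Figure D5:**
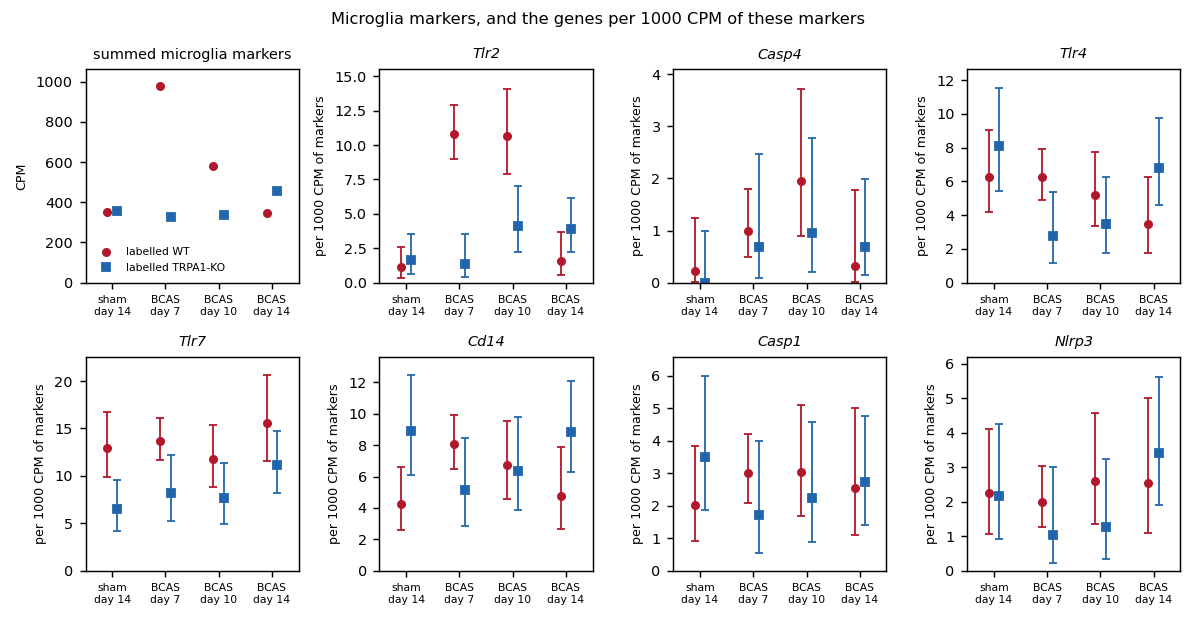
Summed level of 8 microglia markers (first panel, CPM) and 7 genes per 1000 CPM of these markers (other panels) in each library (x axis), with circles for the label WT, squares for the label TRPA1-KO, and bars for 95% counting intervals of the gene. *Tlr2* keeps its 2 high libraries (10.8 and 10.7 per 1000), and *Cd14* and *Tlr4* do not.

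The genes most like the members were sought among 15145 other genes by Pearson correlation with the mean z score of the 9 members over the 8 libraries. *Lair1*, an inhibitory receptor of leukocytes, had r = 0.998, *Ctss*, the lysosomal protease cathepsin S, r = 0.995, and *Ptprc*, the leukocyte antigen CD45, r = 0.993, and the summed microglia markers had r = 0.976. These values describe 8 libraries that differ in depth and in cell type markers, and all genes of a library share both. *Ctss* was at 182 and 133 CPM on days 7 and 10 in WT-labelled mice and at 46.0 to 78.3 CPM in the other 6 libraries.

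A further 67 genes of the same pathways were listed by role, and 62 were abundant enough to test. Between the BCAS groups, 50 were on the side of higher levels in WT-labelled mice and 12 on the other, with a median of 0.15 against 0.0010 over all genes. There were 6 with a limma p under 0.05 in the higher and 1 in the lower direction. In these directions 2.4% and 1.8% of all genes were called, and none of the 62 had an adjusted p under 0.05. Unadjusted, edgeR called 11 and DESeq2 13 of the 62, against 948 and 595 of all genes. Among the receptors, *Cd180*, a TLR4-like regulator, was higher by 1.48 (23.7, 9.70, and 2.30 CPM in WT-labelled mice against 2.23, 2.03, and 3.12). *Tlr9*, the endosomal DNA receptor, was higher by 0.76, with 3.36 ± 0.26 against 1.57 ± 0.17 CPM and no overlap. *Unc93b1*, which carries the endosomal receptors to their site, was higher by 0.76.

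Of the adaptors and kinases only *Irak4*, the kinase that MyD88 recruits, passed between the BCAS groups (0.73). Both tumor necrosis factor receptors did, *Tnfrsf1a* by 0.76 and *Tnfrsf1b* by 0.77, although *Tnf* itself was not measurable. *Naip6*, a sensor of the NAIP family whose near-identical copies can share reads, was lower by 1.07 on the log2 scale (0.173 ± 0.150 against 1.53 ± 0.76 CPM). None of the 12 NF-kB subunits and feedback inhibitors passed in limma, nor did *Nfkbia*. On recovered reads, edgeR and DESeq2 each called 1 of the 12. Of the 15 inflammasome genes tested, edgeR called 3 and DESeq2 5. *Myd88* was at 7.03, 7.31, and 4.28 CPM in WT-labelled mice and 5.57, 5.02, and 5.62 in TRPA1-KO-labelled mice.

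Against sham, 4 pathway genes were higher and 1 lower in the BCAS libraries labelled WT (all genes, 2.44% and 3.01%): *Cd180* (1.78), *Pycard*, the adaptor that links NLRP3 to caspase-1 (1.11), *Tnfrsf1a* (0.82), *Tnfrsf1b* (0.88), and *Il1rap*, the accessory protein of the interleukin-1 receptor (-0.26). On recovered reads, edgeR and DESeq2 each called 11 of the 62, against 1229 and 822 of all genes. In those labelled TRPA1-KO, 2 were higher, *Naip6* (0.73) and *Ly96*, the MD-2 partner of TLR4 (0.47), and 1 lower, *Tlr9* (-0.54), where 1.07% and 1.67% of all genes were called, with 1 called in edgeR and 0 in DESeq2. *Tlr9* was also the only 1 of the 62 whose change from sham differed between labels (interaction 1.28, SE 0.37), at an unadjusted p under 0.05 in limma and not at an adjusted one, where 0.811% of all genes were called higher and 0.684% lower (2 called in edgeR and 1 in DESeq2). Over all libraries, *Irak4* (0.55), *Tab1* (0.19), *Casp8* (0.63), *Tnfrsf1a* (0.64), and *Tnfrsf1b* (0.66) were higher in WT-labelled mice and *Naip6* lower (-0.93), at limma p-values under 0.05 and none adjusted. There 2.11% of all genes were called higher and 1.83% lower in limma. Of the 62, edgeR called 11 and DESeq2 10, and the calls of these tools over all genes are not given here.

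For the slope over days, 24 of the 62 pathway genes passed in the negative direction and none in the positive one, against 8.92% and 6.82% of all genes. At the same threshold edgeR called 25 and DESeq2 10 in either direction, where DESeq2 called 1264 of all genes. With adjustment the counts were 6 in limma, 9 in edgeR, and 2 in DESeq2, against 379, 680, and 211 of all genes. The 6 with a limma adjusted p under 0.05 were *Cd180* (difference -0.47 per day), *Tlr13* (-0.40), *Pycard* (-0.38), *Gsdmd*, the pore-forming target of inflammatory caspases (-0.38), *Tlr1*, the partner of TLR2 (-0.36), and *Unc93b1* (-0.30). *Bcl3*, a nuclear partner of NF-kB, was at -0.34 (limma adjusted p = 0.054). By role, 6 of 12 Toll-like receptors and coreceptors, 2 of 16 adaptors and kinases, 4 of 12 NF-kB subunits and inhibitors, 8 of 15 inflammasome genes, and 4 of 7 cytokine and cytokine receptor genes passed in the negative direction, and differences between these lists were not tested.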

How the data were processed

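Polyadenylated RNA was sequenced from 8 corpus callosum samples. The authors mapped reads to GRCm38 (mm10) with HISAT2, counted them per gene with featureCounts of Subread, and normalized them with edgeR; the annotation, strand setting, and any filter are not given in the sources used here. The deposited signal is CPM by effective library size, not on a log scale, with sums of 966202 to 1022161 per library. Each library's values were 100% whole multiples of what 1 read is worth (tolerance 0.01 reads), so whole reads were recovered (7896071 to 12952093 per library). These gave the floor of 3 reads and exact 95% binomial intervals.

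Values were tested as log2(CPM + 1), for the 18123 genes whose mean reached 0.1 CPM, with limma version 3.58.1 (lmFit, eBayes with trend) in R version 4.3.3. Fold changes on this scale understate those of low genes. The p-values are two-sided, and adjusted ones follow Benjamini and Hochberg over all genes. The BCAS groups and slopes were fitted on the 6 BCAS libraries and the other comparisons on all 8, with both sham libraries as 1 group except in the interaction; BCAS WT minus sham and BCAS TRPA1-KO minus sham share the sham libraries. Single members were also tested by exact permutation. The threshold was a p under 0.05, as in the study's methods.

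Alternatives were a pseudocount of 0.1, no filter, a filter at 1 CPM, limma's robust option, equal library medians, edgeR version 4.0.16 and DESeq2 version 1.42.0 on recovered reads, a replicate block by day, all 8 libraries in 1 fit, and each library left out. The scripts were tested on simulated counts.

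Members and lists were chosen with earlier results of these data known. All members are named; of the other pathway genes, those with a limma p under 0.05 are named, at most 6 per direction by size, and of the genes outside the lists the 3 most like the members. *Unc93b1* in the slopes, *Myd88*, *Lyz2*, *Mrc1*, and *S100a9* were named after their values were seen. Sequences come from RefSeq (GRCm38.p6) and positions from GENCODE M21.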

Additional observations from a re-analysis of the deposited data

Results flagged for a closer look

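*Tlr7* in the BCAS library labelled TRPA1-KO of day 14 (5.10 CPM) stood far from the other 3 libraries of that label, which had 2.30 to 2.67 CPM. This was the only one of 18 groups of 4 libraries tested for such a gap, and chance alone marks about 5% of groups.

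The slope over days 7, 10, and 14 differed between the labels by a limma interaction test for 6 members, by -0.55 per day for *Tlr2*, -0.40 for *Tlr4*, -0.38 for *Cd14*, -0.27 for *Tlr7*, -0.23 for *Nlrp3*, and -0.23 for *Casp1*, in log2(CPM + 1). Each of the 6 had a negative slope with the label WT and a positive one with the label TRPA1-KO. The threshold was an unadjusted p under 0.05, which 8.92% of all genes passed in the negative and 6.82% in the positive direction. Only *Tlr2*, *Tlr4*, and *Cd14* had a limma adjusted p under 0.05. No member had one without the day 7 or day 14 library of either label.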

How the results depend on the processing

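Depth limits *Tnf*, *Casp4*, *Il1b*, and *Nlrp3*, which had at most 22 reads in any library, and no day of a label has a second library. Among single genes outside the left-out libraries, 391 values kept their direction and side of the threshold, 3 passed newly, 3 no longer passed, and 5 turned direction. Those 5 were *Nlrp3* in BCAS TRPA1-KO minus sham (0.013 in edgeR, 0.011 in DESeq2) and *Casp4* in the interaction of operation and label (-0.060 with a pseudocount of 0.1, -1.51 in edgeR, -0.77 in DESeq2); the cause was not tested.

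Between the BCAS groups, edgeR and DESeq2 each gave 2 members a p under 0.05 in place of 1, and over all libraries edgeR gave 2 in place of 1. With 1 library left out, the number of members with a p under 0.05 ranged from 1 to 7 between the BCAS groups, 0 to 5 for BCAS WT minus sham, 1 to 2 over all libraries, 0 to 3 for the interaction, and 2 to 7 for the slopes. It stayed at 0 for BCAS TRPA1-KO minus sham.

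Leaving out 1 library turned the direction of some values that were not past the threshold. Their ranges were, for BCAS TRPA1-KO minus sham, -0.30 to 0.10 for *Casp1*, -0.26 to 0.49 for *Cd14*, -0.15 to 0.18 for *Il1b*, -0.36 to 0.11 for *Nlrp3*, and -0.36 to 0.38 for *Tlr7*. For BCAS WT minus sham they were -0.051 to 0.35 for *Il1b*, -0.0098 to 0.15 for *Nfkbia*, and -0.24 to 0.61 for *Tlr4*. They were -0.065 to 0.30 for *Il1b* between the BCAS groups, -0.19 to 0.42 for *Cd14* over all libraries, and -0.033 to 0.56 for *Tlr7* in the interaction. For the slopes they were -0.25 to 0.023 for *Casp4*, -0.13 to 0.28 for *Il1b*, and -0.028 to 0.091 for *Nfkbia*.

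Same-day libraries of the 2 labels came from different mice, and their deviations from the group means correlated at -0.10, 0.0051, and -0.26 over 10744 genes. With 1 library per label and day, these values cannot show whether libraries share a batch, which the sources used here do not describe. With the day as a replicate block, 1 member passed between the BCAS groups, 1 over all libraries, and 6 for the slopes, as without it, while genes with an adjusted p under 0.05 for the slopes went from 379 to 1103.

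Over all genes, those with a p under 0.05 went from 761 to 1846 between the BCAS groups and from 988 to 2013 for BCAS WT minus sham without the day 14 library labelled WT, from 761 to 325 without the day 10 library labelled TRPA1-KO, from 988 to 357 and from 496 to 191 in the comparisons with sham without the sham library labelled TRPA1-KO, and from 496 to 325 without the day 7 library labelled TRPA1-KO. For the interaction, 271 became 629 with no filter, 98 in DESeq2, 161 without the day 10 library labelled TRPA1-KO, and 723 without the day 14 library labelled WT. For the slopes, 2853 became 1264 in DESeq2, 1343 without the day 7 and 838 without the day 14 library labelled TRPA1-KO, and DESeq2 gave 254 in place of 496 for BCAS TRPA1-KO minus sham. The higher part of these genes was 435 of 761 between the BCAS groups against 639 of 948 in edgeR and 443 of 595 in DESeq2, 443 of 988 against 711 of 1229 and 469 of 822 for BCAS WT minus sham, and 147 of 271 against 73 of 98 in DESeq2 for the interaction. Genes with an adjusted p under 0.05 ranged over all settings from 0 to 29 between the BCAS groups, 0 to 45 and 0 to 4 in the comparisons with sham, 5 to 14 over all libraries, and 0 to 1103 for the slopes, where edgeR gave 680, limma's robust option 644, DESeq2 211, and no filter 0.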
